A study of Mus musculus with 24 samples.

Results

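Mir139, the gene of the microRNA miR-139, and Pde2a, the phosphodiesterase gene in whose intron it lies, were followed in small RNA sequencing of mouse CD4+ T cells and their released extracellular vesicles (EVs). The rows were taken by name from 24 count files, which gave 2 genes on 5 lines: 1 line for Mir139 and 4 lines for Pde2a, out of 4408 features in all, 254 of them microRNAs (miRNAs). The CD4+ T cells, taken from C57BL/6 spleen and lymph nodes, were cultured in high-glucose DMEM and gave Trizol RNA, from cells or from EVs of the culture medium, with 3 libraries in each of 8 groups. GW4869 cultures were stimulated for 3 days with the neutral sphingomyelinase inhibitor GW4869, DMSO cultures for 3 days with its vehicle, and stimulated cultures for 3 days on a plate coated with anti-CD3 at 2 µg/ml, with anti-CD28 at 5 µg/ml in the medium. Resting cultures had also been stimulated, for 2 days, then expanded for 1 day and rested for 2 days in medium with IL2. All groups had therefore been stimulated at some time, and the stimulated and resting cultures also differed in total culture time. The labels do not say whether libraries of a group came from separate mice or cultures, so p-values measure the spread between these libraries, which may be technical.

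miRNAs are short RNAs cut from a hairpin in a longer transcript. Loaded into an Argonaute protein, they pair through their seed with messenger RNAs and lower their output. Many lie in introns of protein-coding genes and can be transcribed together with the host. Pde2a encodes a phosphodiesterase that breaks down cAMP and cGMP and is stimulated by cGMP. cAMP restrains T cell activation, and miR-139 has been described as lower in activated than in naive T cells. T cells release EVs that carry small RNAs, and neutral sphingomyelinase acts in one route of their release.

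On GRCm38, with the GENCODE M21 annotation, Mir139 (ENSMUSG00000065446) spans 68 bases at chr7:101475376-101475443 on the plus strand. Pde2a (ENSMUSG00000110195) spans 91137 bases of the same strand at chr7:101421691-101512827. Of its 12 annotated transcripts, 10 span Mir139, each with the hairpin in an intron and 0 with it in an exon. In Pde2a-201, with 31 exons, Mir139 lies in intron 2, at 101451469 to 101481370, which is 29902 bases long. The hairpin begins 23907 bases after the exon before it and ends 5927 bases before the next exon. A second annotated protein-coding gene, Gm45837 (ENSMUSG00000030653), also spans Mir139 on the same strand, at chr7:101410886-101512819.

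The hairpin and its products are shown because each Mir139 read is a piece of these letters, and a Pde2a read inside them cannot be told from a Mir139 read. The sequences are from RefSeq (GRCm38.p6), written 5′ to 3′, and capitals mark both mature arms in the hairpin and the seed, bases 2 to 8, in each mature miRNA.
Mir139 hairpin: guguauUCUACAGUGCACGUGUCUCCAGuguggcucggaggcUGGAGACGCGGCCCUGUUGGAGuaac
mmu-miR-139-5p: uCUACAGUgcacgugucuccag
mmu-miR-139-3p: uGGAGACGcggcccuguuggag
miR-139-5p lies at chr7:101475382-101475403 and miR-139-3p at chr7:101475418-101475439. Among the mature miRNAs of the RefSeq table, 0 others shared the miR-139-5p seed and 0 the miR-139-3p seed. The files have 1 Mir139 row and do not separate the arms.

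The 4 Pde2a lines were told apart by their values. They combined a lower and a higher reading of the 12 resting and stimulated libraries with a lower and a higher reading of the 12 DMSO and GW4869 libraries. The readings were equal in 3 and differed in 9 of the resting and stimulated libraries, summing to 2170 and 2184 counts. They were equal in 6 and differed in 6 of the DMSO and GW4869 libraries, summing to 520 and 529 counts. In any library they differed by at most 3 counts, and the sources used here do not say which annotated gene each reading belongs to. The line with the lower reading in both sets is used below, and all 4 lines gave the same calls in every comparison. Such combined lines also show that the 2 sets of 12 libraries were tabulated separately, so comparisons across the sets cannot be told apart from tabulation.

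Library totals were 1290918 to 3231626 counts, and the smallest count in any file was 4, so a feature is listed only where every library reached it. Each library's counts were scaled with edgeR's TMM factors and given as counts per 1000000 (CPM). Features were called at an adjusted p under 0.05 in edgeR's quasi-likelihood test over all 4408 features. Of 7 miRNAs fixed as T cell and blood cell markers, 6 had a row. Their summed level is given per 1000000 counts of the library total, without TMM, like the other marker lists and unlike other CPM values. With GW4869 it was 35350 to 56407 in EVs and 62318 to 102110 in cells. With DMSO it was 51829 to 76277 in EVs and 84916 to 102813 in cells. With stimulation it was 78608 to 81512 in EVs and 86903 to 94573 in cells. At rest it was 111497 to 144980 in EVs and 140137 to 153289 in cells.

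Mir139 was counted in all 24 libraries, and its level separated the 6 resting libraries from the 18 others. Its raw counts in replicates 1, 2 and 3 were 18, 16 and 10 in stimulated cells, against 230, 286 and 246 in resting cells. In stimulated EVs they were 37, 25 and 38, against 321, 367 and 396 in resting EVs. The groups did not overlap in either pair.

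On the CPM scale, Mir139 stood at 6.41, 7.95 and 3.70 in stimulated cells (6.02 ± 2.15, mean ± SD, n = 3), against 190.1, 224 and 216 in resting cells (210.2 ± 17.8, n = 3). Every stimulated cell library was thus far under every resting one. Mir139 fell by 5.14 ± 0.38 on the log2 scale (SE, adjusted p = 1.88e-11), 35.2-fold lower in stimulated cells than in resting cells. Called lower in this comparison were 23.1% of all features and 125 of 254 miRNAs. Mir139 had the lowest log2 fold of the 254 miRNAs with a row, whose median was -0.64. A miRNA with under 4 counts in any library has no row and could not be ranked. In these bulk libraries, fewer cells with miR-139 and less miR-139 per cell cannot be told apart.

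In EVs, Mir139 stood at 9.25, 7.25 and 13.8 CPM with stimulation (10.1 ± 3.35, n = 3), against 254, 255 and 207 CPM at rest (239 ± 27.1, n = 3). It fell by 4.57 ± 0.35 on the log2 scale in stimulated EVs relative to resting EVs (adjusted p = 6e-11), or 23.7-fold. The share of all features called lower was 25.2%, and 201 of 254 miRNAs were called lower (median log2 fold -1.21), Mir139 again lowest. Scaled by library totals in place of TMM, which moved the median log2 fold of all features up by 0.82 in cells and 1.12 in EVs, Mir139 had a log2 fold of -4.33 in cells and -3.47 in EVs, still called lower. With library totals, 45.2% of features were called higher and 7.76% lower in cells, and 65.3% higher and 9.66% lower in EVs. With libraries scaled by their miRNA counts alone, Mir139's log2 folds were -3.81 in cells and -2.82 in EVs, and 59.1% of miRNAs were called higher and 15% lower in cells, and 52.4% higher and 12.2% lower in EVs.

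Stimulation with vehicle gave the same order. DMSO cells had 13, 7 and 5 Mir139 counts and 7.53, 3.97 and 3.32 CPM (4.94 ± 2.27, n = 3), against the 190.1 to 224 CPM of resting cells. DMSO EVs had 45, 32 and 47 counts and 11.97, 14.2 and 13.4 CPM (13.2 ± 1.12, n = 3), against 207 to 255 CPM in resting EVs. Neither pair overlapped. Mir139 fell by 5.38 ± 0.40 on the log2 scale in DMSO cells relative to resting cells (adjusted p = 7.14e-11), where 20.6% of features were called lower. In DMSO EVs it fell by 4.18 ± 0.35 relative to resting EVs (adjusted p = 1.9e-10), where 25.5% were called lower. With library totals 37% of features were called higher and 8.37% lower in cells, and 66.1% higher and 9.75% lower in EVs. Mir139 had the lowest log2 fold of the 254 miRNAs in both. These comparisons share the resting libraries with those above.

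**Figure D1:**
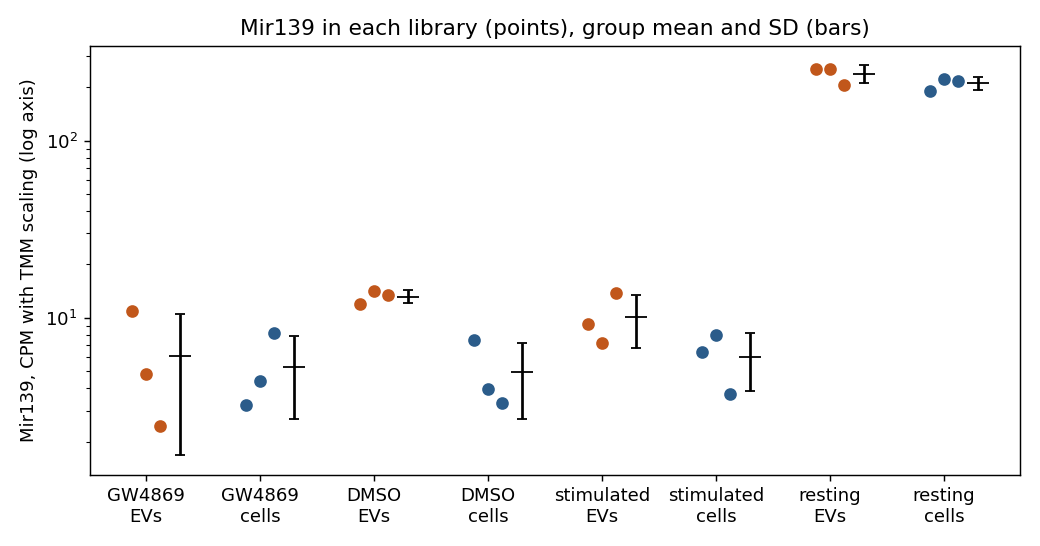
Mir139 level in each library (points, replicates 1 to 3 from left to right in a group; orange EVs, blue cells), with group mean and SD (n = 3), in CPM with TMM scaling on a log axis. The 18 libraries without rest lie between 2.45 and 14.2 CPM, and the 6 resting ones between 190.1 and 255 CPM.

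The 6 groups without rest lay far under the resting groups and nearer to each other. Mir139 was still called higher in DMSO EVs than in DMSO cells. It was also called lower in GW4869 EVs than in DMSO EVs, a call that depended on the processing (both below). Ordered by mean level, Mir139 ran from resting EVs (239 CPM) and resting cells (210.2 CPM) through DMSO EVs (13.2 CPM), stimulated EVs (10.1 CPM), GW4869 EVs (6.08 CPM), stimulated cells (6.02 CPM) and GW4869 cells (5.29 CPM) to DMSO cells (4.94 CPM). Each neighbouring pair in that order overlapped in its libraries, except resting cells and DMSO EVs. Between DMSO and stimulated cultures Mir139 was not called: the log2 fold was -0.25 ± 0.46 in cells (adjusted p = 0.731) and 0.39 ± 0.35 in EVs (adjusted p = 0.45), with 29% and 23.5% of features called in either direction. In cells these were 11.9% higher and 17.2% lower, or 8.53% and 19.4% with library totals. The 95% intervals, -1.14 to 0.65 in cells and -0.29 to 1.07 in EVs, leave room for differences in either direction.

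Ranked by count among the 254 miRNAs, Mir139 stood 246th to 253rd in GW4869 cells, 248th to 254th in DMSO cells and 245th to 254th in stimulated cells, at or near the end of the list, against 113th to 116th in resting cells. In EVs it stood 201st to 248th with GW4869, 196th to 214th with DMSO and 212th to 233rd with stimulation, against no lower than 117th at rest. A count of reads per miRNA precursor was ranked, with no division by length. These ranks hold among miRNAs with a row, and one with under 4 counts in any library has none. By mean CPM over all libraries Mir139 (61.8 CPM) stood 148th, next to Mir669a-7 (61.9 CPM), Mir669a-4 (62.5 CPM) and Mir192 (65.7 CPM) above it and Mir2137 (61.6 CPM), Mir669a-5 (61.5 CPM) and Mir141 (61.2 CPM) below it.

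The Pde2a row covers the hairpin. In 24 of 24 libraries the Pde2a count was at least the Mir139 count. It was 39, 29 and 23 in stimulated cells, a remainder of 21, 13 and 13 counts outside the hairpin, against 237, 291 and 251 in resting cells, a remainder of 7, 5 and 5. It was 68, 59 and 62 in stimulated EVs, a remainder of 31, 34 and 24, against 332, 376 and 403 in resting EVs, a remainder of 11, 9 and 7. The remainder was thus a large part of the row with stimulation and a small one at rest. As Pde2a minus Mir139 in each library, it assumes that every Mir139 read was also counted for Pde2a, which the sources used here do not state.

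Mir139 made up 48.4% of the summed Pde2a row in stimulated cells (95% Wilson interval 38.4 to 58.5%), against 97.8% in resting cells (96.5 to 98.6%). It made up 52.9% in stimulated EVs (45.8 to 59.9%), against 97.6% in resting EVs (96.5 to 98.3%). Intervals cover counting error only. All 18 libraries without rest lay under the 6 resting ones.

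The lowest share was 24.7% (19.0 to 31.5%), in GW4869 EVs, against 53.5% (47.0 to 59.8%) in DMSO EVs. In cells it was 51.6% (39.6 to 63.4%) with GW4869, against 54.3% (40.2 to 67.8%) with DMSO. The 3 GW4869 EV libraries had 34.2%, 21.3% and 13.6%. They lay under all 3 DMSO EV libraries, which had 51.7%, 64% and 49.5%. They also lay under the GW4869 cell libraries, which had 35.3%, 37.5% and 78.3%.

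**Figure D2:**
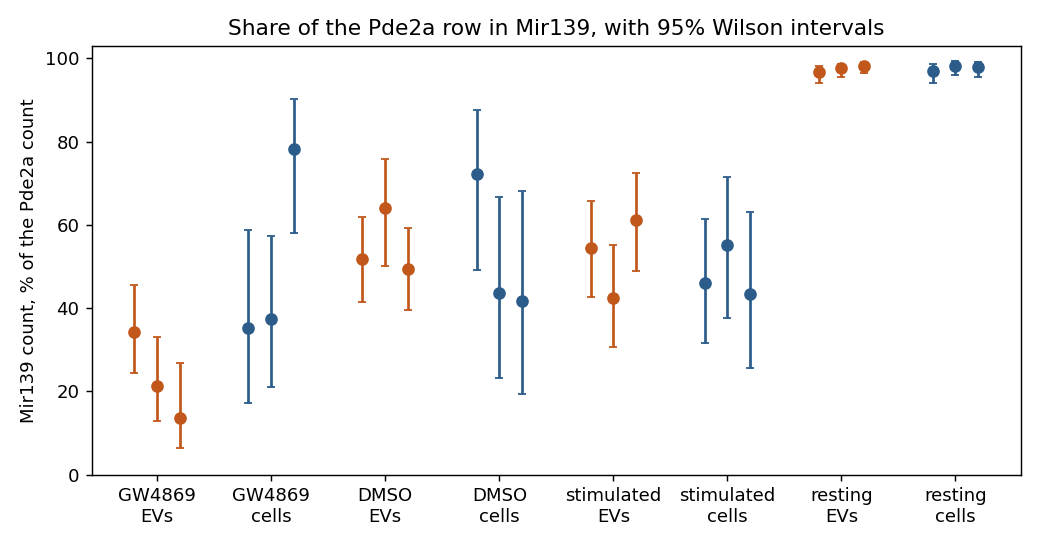
Mir139 count as a percentage of the Pde2a count in each library (points; orange EVs, blue cells), with 95% Wilson intervals as bars. GW4869 EVs have the lowest shares, 13.6% to 34.2%, and resting libraries lie between 96.7% and 98.3%.

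As deposited, the Pde2a row fell with stimulation. It had 13.9, 14.4 and 8.51 CPM in stimulated cells (12.3 ± 3.27, n = 3), against 196, 228 and 221 CPM in resting cells (215 ± 16.8, n = 3). The log2 fold was -4.13 ± 0.25 (adjusted p = 3.94e-13), beside the same 23.1% of features called lower. In EVs it had 17.0, 17.1 and 22.5 CPM with stimulation (18.9 ± 3.15, n = 3), against 262, 261 and 211 CPM at rest (245 ± 29.3, n = 3), a log2 fold of -3.70 ± 0.24 (adjusted p = 2.46e-12). DMSO cells (10.4, 9.08 and 7.96 CPM) had a log2 fold of -4.54 ± 0.26 relative to resting cells (adjusted p = 7.7e-13), and DMSO EVs (23.2, 22.1 and 27.2 CPM) one of -3.33 ± 0.23 relative to resting EVs (adjusted p = 1.05e-11).

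Outside Mir139 that fall was not present with TMM scaling, the only scaling used for the remainder. Library totals moved the median log2 fold of all features up by 0.82 in cells and 1.12 in EVs with stimulation. The size of a change in the remainder therefore depends on the scaling. Stimulated cells had 21, 13 and 13 remainder counts in libraries of 2254908 to 2742635 counts. Resting cells had 7, 5 and 5 in libraries of 1962923 to 2268358. Stimulated EVs had 31, 34 and 24 in libraries of 2202869 to 2731956, and resting EVs 11, 9 and 7 in libraries of 1988062 to 3231626. Per library total, stimulated libraries thus lay above resting ones in cells and in EVs, which was not tested. The remainder was 7.48, 6.46 and 4.81 CPM in stimulated cells (6.25 ± 1.34, n = 3), against 5.79, 3.92 and 4.40 CPM in resting cells (4.70 ± 0.971, n = 3), and the groups overlapped. Its log2 fold was 0.41 ± 0.41 (adjusted p = 0.457, 95% interval -0.40 to 1.21). In stimulated EVs the remainder was 7.75, 9.86 and 8.71 CPM, against 8.69, 6.25 and 3.67 CPM in resting EVs, and its log2 fold was 0.55 ± 0.35 (adjusted p = 0.193, 95% interval -0.14 to 1.24). The fold in DMSO cells relative to resting cells was -0.16 ± 0.46 (adjusted p = 0.838). In DMSO EVs (11.2, 7.97 and 13.7 CPM) the remainder rose by 0.89 ± 0.35 on the log2 scale relative to resting EVs (adjusted p = 0.0305), among 31.3% of features called higher, although 1 resting library overlapped the DMSO libraries. The remainder rests on 5 to 48 counts a library and is a count of small RNA fragments from the gene, not a measure of Pde2a messenger RNA.

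**Figure D3:**
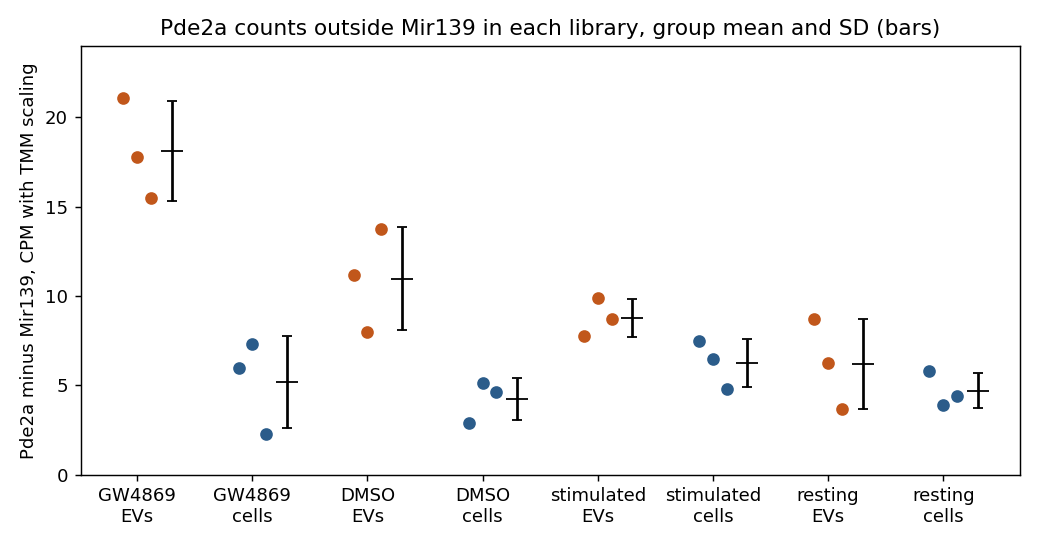
Pde2a counts outside Mir139 in each library (points, CPM with TMM scaling; orange EVs, blue cells), with group mean and SD (n = 3). GW4869 EVs are highest at 15.5 to 21.1 CPM, and stimulated and resting cells overlap, at 3.92 to 7.48 CPM.

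EVs were compared with the cells of the same condition. With DMSO, Mir139 had 11.97 to 14.2 CPM in EVs, against 3.32 to 7.53 CPM in cells, and rose by 1.39 ± 0.41 on the log2 scale (adjusted p = 0.00491), where 37% of features were called higher and 28.4% lower, or 53.5% and 18% with library totals. Leaving out replicate 2 of every group ended that call (1.20, adjusted p = 0.0706). The Pde2a row was higher by the same 1.39 ± 0.26 (adjusted p = 5.4e-05) and its remainder by 1.39 ± 0.36 (adjusted p = 0.00157).

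In stimulated cultures Mir139 had a log2 fold of 0.75 ± 0.38 in EVs relative to cells and was not called (adjusted p = 0.104). Scaled by library totals or by miRNA counts alone it was called higher, at 1.19 (adjusted p = 0.0111) and 1.38 (adjusted p = 0.0041). Pde2a was higher by 0.62 ± 0.24 (adjusted p = 0.0331), where 27.7% of features were called higher and 25.8% lower, or 41.2% and 15.6% with library totals. Its remainder was not called (0.48 ± 0.32, adjusted p = 0.207). The Pde2a call was lost with RLE size factors (0.50, adjusted p = 0.0782), in DESeq2 (0.50, adjusted p = 0.0929) and when stimulated cells replicate 3 (0.42, adjusted p = 0.193) or stimulated EVs replicate 3 (0.48, adjusted p = 0.128) was left out.

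At rest, EVs and cells overlapped for both genes. Mir139 had a log2 fold of 0.18 ± 0.30 (adjusted p = 0.695, 95% interval -0.40 to 0.76) and Pde2a one of 0.19 ± 0.21 (adjusted p = 0.541), where 34.3% of features were called in either direction. An interaction term compared the EV to cell ratio of stimulated cultures with that of resting cultures and gave 0.57 ± 0.48 for Mir139 (adjusted p = 0.381) and 0.43 ± 0.32 for Pde2a (adjusted p = 0.305), with 35.8% of features called in either direction (15.2% higher and 20.7% lower, or 20.4% and 15.4% with library totals).

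In DMSO EVs relative to DMSO cells, 5 of the 254 miRNAs were called higher and 232 lower, at a median log2 fold of -1.15. With miRNA counts alone as the scale, 23 were called higher and 26 lower. At rest 16 were called higher and 17 lower in EVs. Mir139 had the third highest fold of 254 in DMSO cultures and in GW4869 cultures, and the second highest in stimulated cultures, where 4 were called higher. At rest it had the 67th highest. Per 1000000 miRNA counts, Mir139 had 44.9 ± 29.5 in GW4869 EVs against 13.8 ± 5.25 in GW4869 cells, 70.0 ± 17.6 in DMSO EVs against 10.7 ± 4.13 in DMSO cells, 41.3 ± 10.2 in stimulated EVs against 15.6 ± 3.59 in stimulated cells, and 293 ± 52.3 in resting EVs against 221 ± 21.1 in resting cells (SD, n = 3 each).

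Over the 4 conditions Mir139's share of miRNA counts was 2.88-fold higher in EVs than in cells, a mean log2 difference of 1.53 (two-sided exact permutation test within conditions, p = 3.75e-05). Within a condition the log2 difference was 1.57 with GW4869, 2.74 with DMSO, 1.40 with stimulation and 0.39 at rest, and 3 against 3 libraries cannot give an exact p under 0.1. Over resting and stimulated cultures alone the mean was 0.90 (exact permutation p = 0.015), and over DMSO and GW4869 cultures alone 2.15 (exact permutation p = 0.005). A share is relative to the other miRNAs and is not an amount per EV.

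In GW4869 EVs Mir139 was a smaller part of the Pde2a row than in DMSO EVs, a difference in share that was not tested. Mir139 had 25, 13 and 6 counts in GW4869 EVs, or 10.97, 4.82 and 2.45 CPM (6.08 ± 4.40, n = 3), against 45, 32 and 47 counts, or 11.97, 14.2 and 13.4 CPM, in DMSO EVs. The groups did not overlap, though GW4869 EV replicate 1 lay close to the lowest DMSO library. Mir139 fell by 1.13 ± 0.38 on the log2 scale (adjusted p = 0.0408), where 7.89% of features were called higher and 9.69% lower (13.1% and 2.47% with library totals), with 48 of the 254 miRNAs lower and 0 higher. With miRNA counts alone as the scale, 1 miRNA was called lower and 0 higher.

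That call depended on the processing. Scaled by library totals the log2 fold was -0.80 (adjusted p = 0.149), by miRNA counts alone -0.62 (adjusted p = 0.564), and with the 12 DMSO and GW4869 libraries alone -1.11 (adjusted p = 0.105). It was also lost without GW4869 EVs replicate 2 (-0.85, adjusted p = 0.177) or replicate 3 (-0.63, adjusted p = 0.314), and without DMSO EVs replicate 2 (-1.08, adjusted p = 0.119) or replicate 3 (-1.11, adjusted p = 0.0635). GW4869 EVs had 1290918 to 1663560 counts a library, against 2068951 to 2579407 in DMSO EVs.

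The Pde2a row did not follow. It had 32.0, 22.6 and 18.0 CPM in GW4869 EVs (24.2 ± 7.18, n = 3), against 23.2, 22.1 and 27.2 CPM in DMSO EVs (24.2 ± 2.66, n = 3), and its log2 fold was 0.00 ± 0.23 (adjusted p = 0.994, 95% interval -0.45 to 0.44). The remainder was 21.1, 17.8 and 15.5 CPM in GW4869 EVs, against 11.2, 7.97 and 13.7 CPM in DMSO EVs. These did not overlap, but the log2 fold of 0.70 ± 0.28 was not called (adjusted p = 0.0817).

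In cells, GW4869 and DMSO libraries overlapped for both genes. Mir139 had 3.24, 4.39 and 8.24 CPM in GW4869 cells (5.29 ± 2.62, n = 3), against 7.53, 3.97 and 3.32 CPM in DMSO cells, a log2 fold of 0.11 ± 0.47 (adjusted p = 0.962) that turned to -0.37 without GW4869 cells replicate 3, to -0.037 without DMSO cells replicate 2 and to -0.095 without DMSO cells replicate 3. Pde2a had 9.19, 11.7 and 10.5 CPM in GW4869 cells, against 10.4, 9.08 and 7.96 CPM in DMSO cells (log2 fold 0.19 ± 0.28, adjusted p = 0.867), where 2.99% of features were called in either direction.

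Set against their own cells, GW4869 EVs had Mir139 at a log2 fold of 0.16 ± 0.44 (adjusted p = 0.762), with overlapping libraries. Scaled by miRNA counts alone that became 1.65 (adjusted p = 0.00618), and without replicate 3 of every group it was 1.11 (adjusted p = 0.0433). It turned to -0.45 without GW4869 EVs replicate 1 and to -0.08 without GW4869 cells replicate 1, neither called. Pde2a was higher by 1.20 ± 0.25 (adjusted p = 0.000175) and its remainder by 1.81 ± 0.33 (adjusted p = 3.01e-05), where 36.2% of features were called higher and 32% lower, or 55.5% and 18.6% with library totals. The test of the EV to cell ratio between GW4869 and DMSO gave -1.23 ± 0.61 for Mir139 (adjusted p = 0.22) and -0.20 ± 0.36 for Pde2a (adjusted p = 0.782), with 7.58% of features called in either direction. Without replicate 1 of every group the Mir139 ratio was -2.68 (adjusted p = 0.0396), and without replicate 3 it was 0.020 (adjusted p = 0.996).

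The ratio of Pde2a to Mir139 counts within a library needs no scaling. Its log2 was higher in EVs than in cells by 1.13 with GW4869, and the difference was -0.11 with DMSO, -0.12 with stimulation and 0.00 at rest. The mean over the 4 conditions was 0.23 (two-sided exact permutation test within conditions, p = 0.267).

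**Figure D4:**
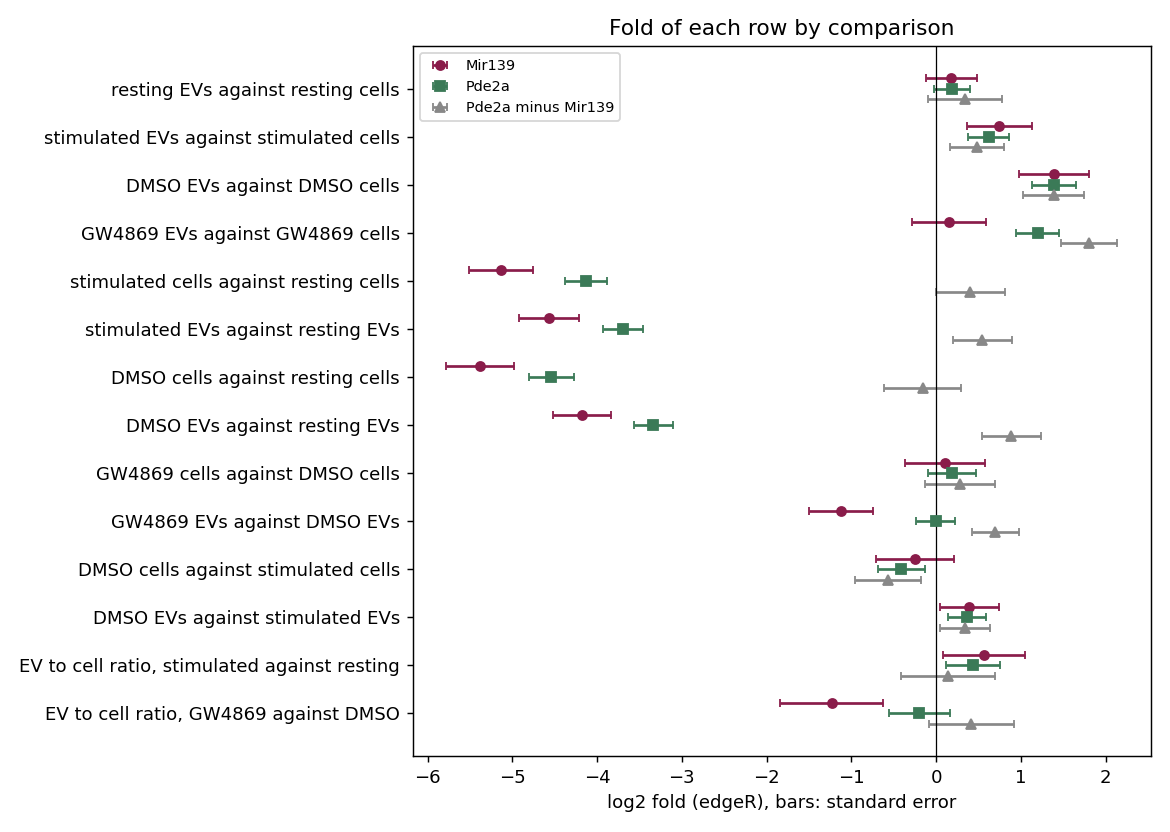
Log2 fold (points) and SE (bars) from edgeR for Mir139, Pde2a and Pde2a minus Mir139 in 12 comparisons of groups and 2 of EV to cell ratios, the first-named group over the second. Mir139 and Pde2a lie between -5.38 and -3.33 in the 4 comparisons with resting cultures, where Pde2a minus Mir139 lies between -0.16 and 0.89.

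The share was set beside that of other hosts of intronic miRNAs. Of 41 miRNA and host pairs listed, 39 had both rows, in 34 hosts, and all 34 hosts had at least their miRNAs' count in all 24 libraries. The miRNAs took a median of 98.6% of the host row in stimulated cells and 99.6% in resting cells, and the share exceeded 90% in 27 hosts in stimulated cells and in 32 in resting cells. Pde2a's share was lower by 49.5 percentage points in stimulated cells, the largest fall of the 34 hosts in cells. Its row was also the lowest of the 34 host rows in stimulated cells, at 12.3 CPM, with Arpp21 next at 77.1 CPM. A remainder of a given size therefore takes a larger part of the Pde2a row than of the others. In EVs Pde2a's share changed by -44.7 points, and the largest fall was that of Lpp, at -49.2 points.

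In cells shares fell by over 10 points in 4 hosts, and 28 stayed within 5 points, with a median change of -0.92. In EVs 6 hosts fell by over 10 points, Arrb1 (-33.8 points) and Tango2 (-31.7 points) after Lpp and Pde2a. In cells Lpp, an adhesion protein gene that hosts Mir28a, came next after Pde2a, with 74.1% in stimulated cells and 91.5% in resting cells, and had 41.5% in stimulated EVs and 90.7% in resting EVs. Srebf2, a regulator of sterol synthesis that hosts Mir33, had 86.8% in stimulated cells and 99.5% in resting cells. Arrb1, the arrestin gene that hosts Mir326, had 81.3% in stimulated cells and 93.8% in resting cells. The opposite case was Ptk2, the focal adhesion kinase gene that hosts Mir151, with 80.1% in stimulated cells and 57.9% in resting cells. Precursors with near-identical copies, such as Mir26a-1 and Mir26a-2, can share reads.

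**Figure D5:**
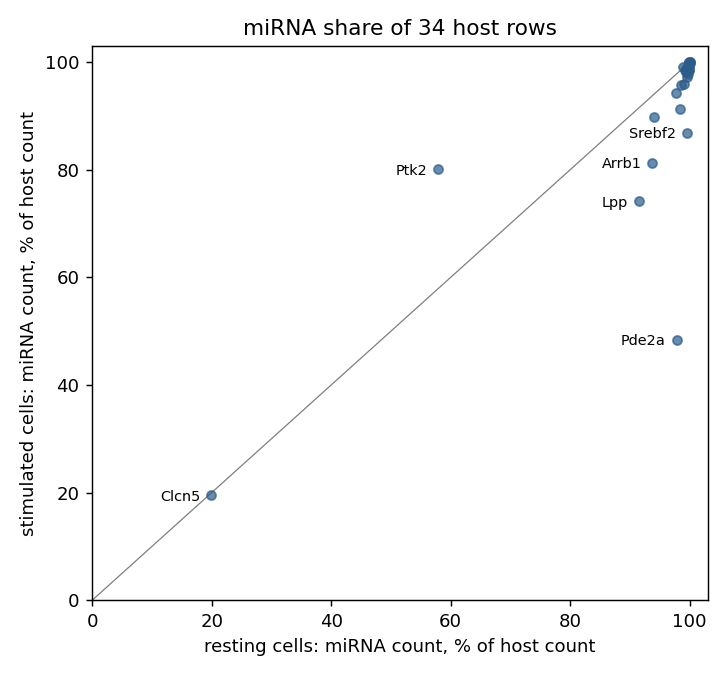
Share of each host gene's count held by its intronic miRNAs, in stimulated cells (vertical axis, %) and resting cells (horizontal axis, %), for 34 hosts, with the line of equal shares. In cells Pde2a lies farthest under the line, at 48.4% in stimulated cells and 97.8% in resting cells.

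As rows, 33 of the 39 intronic miRNAs were called lower in stimulated cells than in resting cells and 0 higher (median log2 fold -1.25). In EVs 38 were called lower and 0 higher (median -1.76). Of all 254 miRNAs, 125 were called lower and 23 higher in cells, and 201 lower and 8 higher in EVs. With miRNA counts alone as the scale the intronic counts became 10 lower and 13 higher in cells, and 9 lower and 10 higher in EVs. Over all miRNAs that scale gave 15% lower and 59.1% higher in cells, and 12.2% lower and 52.4% higher in EVs. Of the 34 hosts, 28 were called lower and 1 higher in cells (median -1.05), and 33 lower and 0 higher in EVs (median -1.65). The 1 higher was Hnrnpk, an RNA-binding protein gene that hosts Mir7-1 (0.45 ± 0.18, adjusted p = 0.0497), and 0 hosts were called higher with RLE size factors, in DESeq2, with a minimum count of 50, with the replicate block or without any 1 of the replicates. With library totals 14 hosts were called lower and 5 higher in cells, and 22 lower and 3 higher in EVs. On that scale 7.76% of all features were called lower and 45.2% higher in cells, and 9.66% lower and 65.3% higher in EVs. Over all features 23% were called higher and 23.1% lower in cells (median -0.05), against 28.9% higher and 25.2% lower in EVs (median 0.09), all with TMM scaling.

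The miRNAs whose pattern over the 24 libraries was most like that of Mir139 were Mir150 (Pearson r = 0.977 of log2 CPM), Mir221 (0.919), Mir26a-2 (0.912), Mir26b (0.911), Mir26a-1 (0.905) and Mir222 (0.887). These correlations describe libraries that fall into resting and other cultures and share depth and scaling. Mir150, an abundant miRNA of mature lymphocytes, had 1562 ± 302 CPM in stimulated cells against 24123 ± 2487 CPM in resting cells (SD, n = 3 each), a log2 fold of -3.95 ± 0.24 (adjusted p = 5.81e-13). Mir26a-2 had 463 ± 126 CPM in stimulated cells against 3300.0 ± 191 CPM in resting cells (-2.83 ± 0.21, adjusted p = 2.25e-11). Mir221 had 101 ± 10.2 CPM against 478 ± 33.6 CPM (-2.24 ± 0.20, adjusted p = 7.16e-10).

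Of these, 5 precursors give mature miRNAs with shared seeds, which are printed to show that none of them is the seed of miR-139 (RefSeq, GRCm38.p6, seed in capitals, with Mir26a-1 and Mir26a-2 giving the same miR-26a-5p).
mmu-miR-26a-5p: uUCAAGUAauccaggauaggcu
mmu-miR-26b-5p: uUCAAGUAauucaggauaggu
mmu-miR-221-3p: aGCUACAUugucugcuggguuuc
mmu-miR-222-3p: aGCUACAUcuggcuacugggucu

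Among 26 listed miRNAs known from naive T cells, Mir139 included, 23 were called lower and 0 higher in stimulated cells (median log2 fold -1.77), and 23 lower and 0 higher in stimulated EVs (median -1.82). Of all 254 miRNAs, 125 were called lower and 23 higher in cells, and 201 lower and 8 higher in EVs. With miRNA counts alone as the scale the list counts were 15 lower and 3 higher in cells, and 5 lower and 7 higher in EVs. Over all miRNAs that scale gave 15% lower and 59.1% higher in cells, and 12.2% lower and 52.4% higher in EVs. Mir342, hosted by Evl, fell by 1.74 ± 0.19 in cells (adjusted p = 5.11e-08) and Mir29a had a log2 fold of -1.80 ± 0.26 (adjusted p = 2.16e-06). Mir101b (-0.23 ± 0.24), Mir30a (-0.40 ± 0.36) and Mir151 (0.51 ± 0.26) were not called in cells.

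Of 17 listed miRNAs known from T cell activation, 4 were called higher and 10 lower in cells (median -0.67), and 1 higher and 16 lower in EVs (median -1.67). Of all 254 miRNAs, 23 were called higher and 125 lower in cells, and 8 higher and 201 lower in EVs. With miRNA counts alone as the scale, 9 listed miRNAs were higher and 5 lower in cells, and 8 higher and 8 lower in EVs. Over all miRNAs that scale gave 59.1% higher and 15% lower in cells, and 52.4% higher and 12.2% lower in EVs. With TMM scaling, Mir210 (-2.42 ± 0.23) and Mir182 (-2.25 ± 0.25) were among the 10 called lower in cells. So were Mir221 (-2.24 ± 0.20) and Mir222 (-2.07 ± 0.23), named above as most like Mir139. The 4 called higher in cells follow. Mir155, which marks activated lymphocytes, rose by 1.66 ± 0.18 in stimulated cells (adjusted p = 2.05e-08) and by 0.86 ± 0.17 in stimulated EVs (adjusted p = 0.000158). Mir31 rose by 0.71 ± 0.23 in stimulated cells (adjusted p = 0.0118) and fell by 0.74 ± 0.23 in stimulated EVs (adjusted p = 0.00787). Mir132 and Mir212, neighbours in one cluster, rose by 1.10 ± 0.21 (adjusted p = 8.67e-05) and 1.38 ± 0.23 (adjusted p = 1.88e-05) in stimulated cells, and fell in stimulated EVs, with log2 folds of -0.65 ± 0.21 (adjusted p = 0.00985) and -1.67 ± 0.23 (adjusted p = 1.04e-06).

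Of 44 listed genes of cyclic nucleotide synthesis, breakdown and response, 18 had a row. With Pde2a among them, 3 were called higher and 1 lower in stimulated cells (median log2 fold -0.03), and 10 higher and 3 lower in stimulated EVs (median 0.69). Over all features these shares were 23% higher and 23.1% lower in cells, and 28.9% higher and 25.2% lower in EVs. Without replicate 1 or replicate 3, 1 gene was called higher in cells, and without replicate 2, 6 were called higher in EVs. With library totals 9 of these genes were called higher and 1 lower in cells, and 15 higher and 1 lower in EVs. On that scale 45.2% of all features were called higher and 7.76% lower in cells, and 65.3% higher and 9.66% lower in EVs. Pde2a was the 1 gene lower in cells, and its counts outside Mir139, fitted with TMM scaling only, were not called there.

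The cAMP phosphodiesterase genes Pde4b and Pde4d had log2 folds of -0.10 ± 0.51 (adjusted p = 0.894) and 0.25 ± 0.23 (adjusted p = 0.404) in stimulated cells and rose in stimulated EVs by 2.19 ± 0.47 (adjusted p = 0.000329) and 0.73 ± 0.23 (adjusted p = 0.00892). Pde1c, a calcium-activated phosphodiesterase, had 82.2 ± 14.7 CPM in stimulated EVs against 15.8 ± 6.17 CPM in resting EVs (SD, n = 3 each), a rise of 2.35 ± 0.31 (adjusted p = 6.46e-07). Adcy2, an adenylate cyclase, rose by 1.00 ± 0.30 in stimulated cells (adjusted p = 0.00716) and by 1.54 ± 0.26 in stimulated EVs (adjusted p = 2.1e-05). Rapgef4, a cAMP-activated exchange factor, rose by 1.56 ± 0.35 in stimulated cells (adjusted p = 0.000526), and Pde11a, which breaks down cAMP and cGMP, by 0.88 ± 0.33 (adjusted p = 0.0297). The other genes lower in EVs were Prkar1b, a regulatory subunit of protein kinase A (-1.45 ± 0.28, adjusted p = 0.000123), and Creb1, a cAMP-responsive transcription factor (-1.24 ± 0.52, adjusted p = 0.0476). All of these are counts of small fragments, not messenger RNA levels.

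Scaled by library totals, markers of other cell types had higher summed levels in stimulated cells, where Mir139 was lower, than in resting cells. The marker CPM values below are on that scale, without TMM. TMM factors were 0.563 to 0.579 in resting cells and 0.892 to 1.094 in stimulated cells. TMM scaling would therefore narrow these differences between cells, and whether each would remain was not tested. Mir451a, the 1 erythroid marker of 3 with a row, summed to 60 to 75 CPM in stimulated cells and 6 to 18 CPM in resting cells. The platelet and endothelial markers Mir126a and Mir126b, 2 of 2, summed to 205 to 240 CPM in stimulated cells and 124 to 134 CPM in resting cells. The epithelial markers Mir200c and Mir141, 2 of 7, summed to 115 to 126 CPM in stimulated cells and 51 to 58 CPM in resting cells. Mir7-2, 1 of 5 neural and endocrine markers, had 1301 to 1374 CPM in stimulated cells and 477 to 557 CPM in resting cells. This did not hold throughout EVs: Mir126a and Mir126b summed to 102 to 214 CPM in GW4869 EVs and 137 to 210 CPM in DMSO EVs, against 188 to 195 CPM in resting EVs, and Mir200c and Mir141 to 63 to 92 CPM in DMSO EVs, against 78 to 84 CPM in resting EVs. Of 1 myeloid, 1 liver, 5 muscle and 5 stromal markers listed, 0 matched a row used here. The part of other cell types in the Mir139 result was not tested.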

How the data were processed

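Bowtie, GRCm38 and mm10 are named in the submitters' processing notes. How it was set, how multi-mapped reads were treated, and the annotation and counting tool are not given in the sources used here. In whole numbers, the deposited files hold 1 raw read count per feature and library, on 4441 lines, of which 33 full repeats were dropped. Other columns of per-sample values not used numbered 0. Long genes include the reads of small RNAs inside them, so a long gene's count is not an mRNA level.

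All 24 libraries entered 1 fit in edgeR 4.0.16 (R 4.3.3) with TMM scaling, filterByExpr (minimum count 10, which removed 0 features) and the quasi-likelihood test, with Benjamini-Hochberg adjustment over 4408 features for each of 14 comparisons. Log2 CPM for correlations used a prior count of 2. The remainder of Pde2a was fitted in place of its row. Wilson intervals (95%) and exact permutation tests used raw counts. Alternatives were RLE size factors, library totals, miRNA rows alone, other count filters, DESeq2 1.42.0, each set's own 12 libraries, a replicate block and leaving libraries out. The fits were tested on simulated data.

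Named were Mir139 and Pde2a in every comparison, the 6 miRNAs of highest correlation with Mir139, the 3 above and 3 below it in mean CPM, and the intronic pairs, with examples of the lists picked after their values were seen. Members, lists and tests were chosen with earlier results of these data known.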

Additional observations from a re-analysis of the deposited data

How the results depend on the processing

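The falls of Mir139 against resting cultures kept their direction and call under every alternative run: log2 fold -5.36 to -3.81 in stimulated cells, -4.94 to -2.82 in stimulated EVs, -5.89 to -4.32 in DMSO cells and -4.35 to -2.07 in DMSO EVs, with adjusted p up to 2.74e-06. Over all comparisons, Mir139 kept direction and call in 220 of 246 alternatives and Pde2a in 236 of 260. These tallies include the fit without the low count filter, which equals the main fit because the filter removed 0 features. They also count comparisons called in neither the main fit nor the alternative. Counts of 5 to 47 a library outside rest limit the other comparisons of Mir139.

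With Pde2a minus Mir139, the Pde2a folds became 0.41 in stimulated and -0.16 in DMSO cells against resting cells, 0.55 in stimulated and 0.89 in DMSO EVs against resting EVs, 0.48 in stimulated EVs against cells (call lost), 0.70 in GW4869 against DMSO EVs and 0.42 for the EV to cell ratio of GW4869 against DMSO, by subtraction of the Mir139 counts. For the others the cause was not tested. Mir139 in stimulated EVs against cells was 1.19 with library totals and 1.38 with miRNA rows alone, and in GW4869 EVs against cells 1.65 with miRNA rows alone. In GW4869 against DMSO EVs it was -0.80 with library totals, -0.62 with miRNA rows alone and -1.11 with the own 12 libraries, which gave -0.035 in GW4869 against DMSO cells. Pde2a in stimulated EVs against cells was 0.50 with RLE size factors and 0.50 in DESeq2. Pde2a in GW4869 against DMSO EVs was 0.30 with library totals, 0.0085 with the own 12 libraries and 0.032 with the higher Pde2a line. The ratio of Pde2a to Mir139 counts was -0.057 over resting and stimulated cultures alone.

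Leaving out a replicate of every group or 1 library gave these ranges for Mir139: 0.07 to 0.32 in resting, 0.25 to 1.16 in stimulated, 1.09 to 1.89 in DMSO and -0.78 to 1.11 in GW4869 EVs against cells, -0.62 to 0.78 in GW4869 against DMSO cells, -1.89 to -0.60 in GW4869 against DMSO EVs, -0.69 to 0.12 in DMSO against stimulated cells, -0.075 to 0.98 for the EV to cell ratio of stimulated against resting and -2.68 to 0.020 for that of GW4869 against DMSO. For Pde2a they were 0.30 to 0.81 in stimulated EVs against cells, -0.29 to 0.40 in GW4869 against DMSO EVs, -0.03 to 0.73 for the EV to cell ratio of stimulated against resting and -0.66 to 0.34 for that of GW4869 against DMSO. The higher Pde2a line and single libraries left out were chosen after seeing the data.

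Counts of all features called moved with the processing. Stimulated against resting EVs had 2386, from 1878 without replicate 1 to 3306 with library totals. DMSO against resting EVs had 2503, from 1972 without replicate 3 to 3342 with library totals. GW4869 against DMSO cells had 132, from 2 without replicate 2 to 217 with library totals. GW4869 against DMSO EVs had 775, from 99 without replicate 2 to 829 in DESeq2. DMSO against stimulated cells had 1279, from 707 without replicate 1 to 1357 with RLE size factors. DMSO against stimulated EVs had 1038, from 400 without replicate 1. The EV to cell ratio of stimulated against resting had 1580, from 939 without replicate 1 to 1810 with the own 12 libraries. That of GW4869 against DMSO had 334, from 45 with the own 12 libraries to 385 in DESeq2. Libraries of the same number are not known to be paired: over 24 pairs the correlation of deviations ran from -0.373 to 0.162. The replicate block left each Mir139 and Pde2a call as it was (stimulated against resting cells: Mir139 -5.15, Pde2a -4.14; Mir139 in GW4869 against DMSO EVs: -1.14, adjusted p = 0.0455).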
